A study of Mus musculus with 12 samples.

Results

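The genes described are 8 members of the Ly6 family in mouse mandibular lymph nodes: Ly6a, Ly6c1, Ly6c2, Ly6d, Ly6e, Ly6g, Ly6i and Ly6k. They were chosen by name from the deposited table of 56941 gene IDs, with library-scaled levels over the 4 groups of the study already known. The levels and differences below are therefore descriptions of these genes, and no p-value is given for any of them. All 8 had enough counts to enter the fit over 20034 genes.

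Bulk RNA was sequenced from 12 libraries, 3 in each of 4 groups. KO_DTH was miR-451a knockout mice that had been sensitized with the hapten 1-fluoro-2,4-dinitrobenzene (DNFB) and then challenged on an ear. KO_se was miR-451a knockout mice that had been sensitized only. WT_DTH and WT_se were wild-type mice given the same treatments. Every animal received 100 μl of 0.5% DNFB on the shaved abdomen on days 0, 1 and 2. The challenged mice also received 20 μl of 1% DNFB on the left ear on day 9, and their nodes were taken 24 hours later, on day 10. The sensitized nodes were taken on day 9, so the effect of the challenge and that of the extra day cannot be told apart. The labels give no strain, age or sex and do not say whether the nodes came from separate animals, so the errors measure the spread between these libraries.

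Ly6 proteins are small surface proteins with the LY6/uPAR fold, a disulfide-linked scaffold of finger-like loops, and most are held in the membrane by a glycosylphosphatidylinositol anchor. In mice they are widely used to tell blood cells apart. Ly6C, encoded by Ly6c1 and Ly6c2, marks inflammatory monocytes and also lies on some T cells, plasma cells and endothelium, Ly6G marks neutrophils, and Ly6A (Sca-1) marks haematopoietic stem cells and activated lymphocytes. Ly6a, Ly6c and Ly6e are known to be induced by interferons.

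The 8 genes lie on chromosome 15, in the order Ly6d, Ly6k, Ly6e, Ly6i, Ly6a, Ly6c1, Ly6c2 and Ly6g in the GENCODE M21 annotation. Some are close copies. The coding sequences of Ly6c1 and Ly6c2 were 97.7% identical, with 9 substitutions in 393 bases and a longest identical run of 188 bases. The first 90 coding bases of both Ly6c copies are printed because they hold 6 of the 9 differences between the coding sequences. Capitals mark the bases that differ between the copies (GENCODE M21, coding strand, bases 1 to 90 from the start codon).
Ly6c1: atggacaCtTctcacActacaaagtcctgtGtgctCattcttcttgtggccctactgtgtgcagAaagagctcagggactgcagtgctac
Ly6c2: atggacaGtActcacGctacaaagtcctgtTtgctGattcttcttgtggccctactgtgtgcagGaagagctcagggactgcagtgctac
Ly6a and Ly6i were 86.3% identical over their coding sequences and Ly6a and Ly6g 83.1%. Ly6d, Ly6e and Ly6k were only 46.5 to 53.5% identical to any other member. Of all 50-base windows in the transcript of Ly6c1, 36.7% were also found in the transcript of another gene, mainly Ly6c2, and the share was 33.0% for Ly6c2. It was 10.04% for Ly6a, 4.97% for Ly6i and 0.448% for Ly6g, and 0 for Ly6d, Ly6e and Ly6k. Reads from such windows could be counted for either copy, so the separate values of Ly6c1 and Ly6c2 are uncertain to that extent, and the sum of the pair is given beside them.

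**Figure D1:**
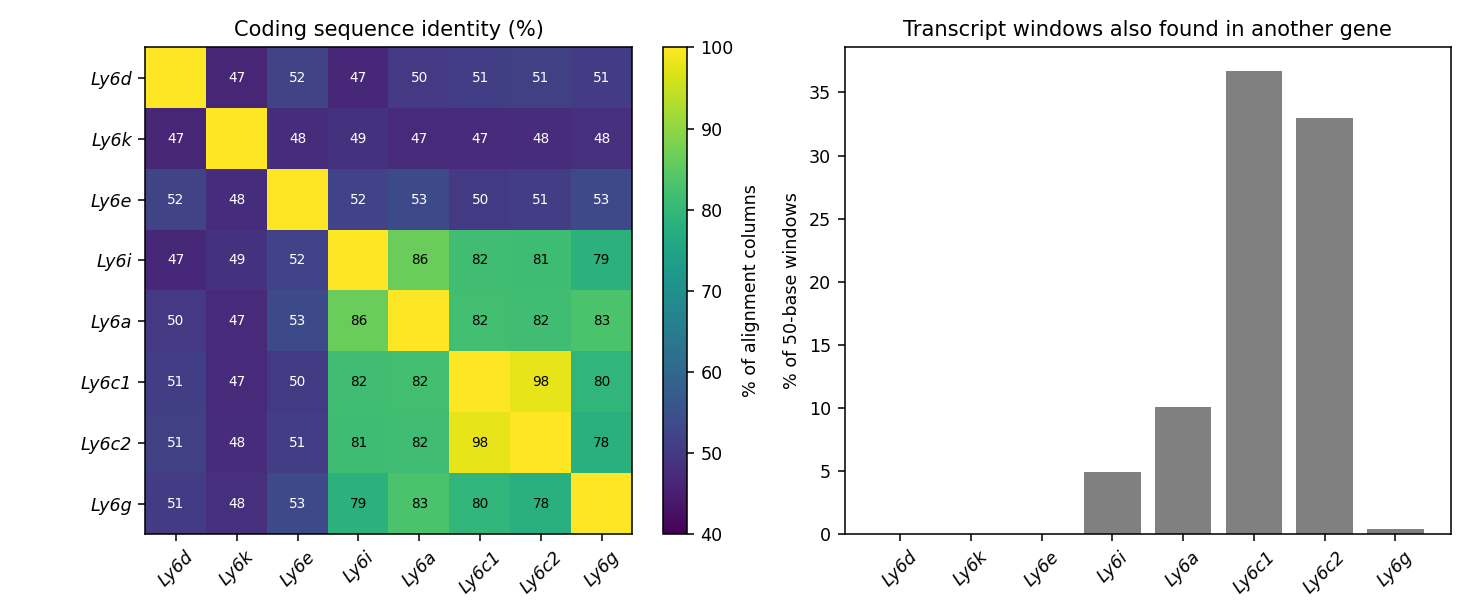
Left, percent of identical columns in the coding sequence alignments of the 8 members in chromosome order. Right, the percent of 50-base transcript windows of each member that also occur in a transcript of another gene. Ly6c1 and Ly6c2 stand out at 36.7% and 33.0%, and Ly6d, Ly6k and Ly6e share no window.

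The stretches before the start of transcription of the Ly6c copies differ more than the coding sequences do. RefSeq tables held an entry for 3 of the 8 members, Ly6c1, Ly6c2 and Ly6g. The stretches of Ly6c1 and Ly6c2 that align are printed because the levels of this pair differed in how they changed on challenge. They were 71.9% identical over 228 alignment columns, with 52 substitutions and 12 gap columns. Capitals mark bases that differ from, or are missing in, the other copy. The Ly6c1 stretch is chr15:75048838-75049056 and the Ly6c2 stretch chr15:75111997-75112221, both on the minus strand of GRCm38.p6.
Ly6c1: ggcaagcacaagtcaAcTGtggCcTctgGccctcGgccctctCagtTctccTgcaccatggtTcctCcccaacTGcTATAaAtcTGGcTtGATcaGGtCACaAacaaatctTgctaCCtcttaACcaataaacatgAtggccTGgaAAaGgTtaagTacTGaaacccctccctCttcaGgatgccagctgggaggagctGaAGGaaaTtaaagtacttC
Ly6c2: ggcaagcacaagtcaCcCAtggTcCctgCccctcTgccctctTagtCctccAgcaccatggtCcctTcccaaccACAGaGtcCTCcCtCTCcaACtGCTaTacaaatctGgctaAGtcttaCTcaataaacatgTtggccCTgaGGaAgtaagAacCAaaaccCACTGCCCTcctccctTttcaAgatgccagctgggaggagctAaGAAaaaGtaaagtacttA
Both strands of the 250 bases before each annotated start were searched for 3 motifs. The interferon-stimulated response element, searched as a pair of GAAA sites spaced by any 2 bases, and the gamma-activated sequence TTCNNNGAA were found in none of the windows of Ly6c1, Ly6c2 and Ly6g. They occurred in 2.98% and 7.02% of 32841 windows of the same length. TATAAA was found in 1 window of Ly6c1, at position -143 from the start, and in both windows of Ly6g, and in no window of Ly6c2. It occurred in 12.4% of all windows.

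The deleted microRNA, miR-451a, is best known from the red cell lineage. Its mature sequence is printed with the seed, bases 2 to 8, in capitals (RefSeq, GRCm38.p6), since the knockout contrasts concern its absence.
mmu-miR-451a: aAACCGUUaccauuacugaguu
Its 7-base seed match AACGGTT was found in 0 of the 8 members' annotated 3′ UTRs, and in 467 of 21186 genes (2.20%). A search for letters in an annotation says nothing of whether a gene is regulated. Levels of the microRNA were not analysed here, and Mir144, made from the same cluster, reached at most 2 counts in any library, so the genotype labels were not checked by either.

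The libraries held 36.9 to 58.4 M counts, of which the 8 members took 0.186 ± 0.007% in KO_DTH, 0.104 ± 0.010% in KO_se, 0.193 ± 0.011% in WT_DTH and 0.0832 ± 0.0062% in WT_se (SD, n = 3 each). The groups also differed in the shares of salivary gland and mitochondrial genes. A list of salivary gland genes held 7.59 ± 2.97% of the counts in KO_DTH, 4.67 ± 2.04% in KO_se, 2.60 ± 0.68% in WT_DTH and 10.6 ± 3.7% in WT_se. Mitochondrial genes held 10.7 ± 5.2% in KO_DTH, where single libraries ranged from 5.75 to 16.04%, 13.9 ± 2.1% in KO_se, 5.29 ± 0.75% in WT_DTH and 17.3 ± 2.9% in WT_se, and the part of this share in the differences below was not tested. Of 18 salivary gland genes tested, 17 were lower in WT_DTH than in WT_se, and 10 differed between genotypes in how they changed on challenge, both at an adjusted p under 0.05 by edgeR. The second count ran from 0 to 17 as single libraries were left out. Cd3e, a lymph node marker of T cells, was present in every group. All differences are relative to the total of a bulk sample, in which fewer cells of a type and less RNA per cell cannot be told apart.

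After challenge 5 of the 8 genes were higher in each genotype. In WT_DTH against WT_se these were Ly6a, Ly6c2, Ly6d, Ly6e and Ly6i, counted at an adjusted p under 0.05 by edgeR, beside 9.77% of all genes that were higher and 8.97% that were lower. For KO_DTH against KO_se the genes counted were Ly6a, Ly6c1, Ly6c2, Ly6e and Ly6i, beside 5.81% of all genes higher and 3.86% lower. No member was counted as lower in either. The median log2 fold change of the 8 was 1.05 in wild type and 0.70 in knockout, and that of all genes tested was -0.01 and -0.00. Since levels over these groups chose the members, nothing is read from these counts.

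**Figure D2:**
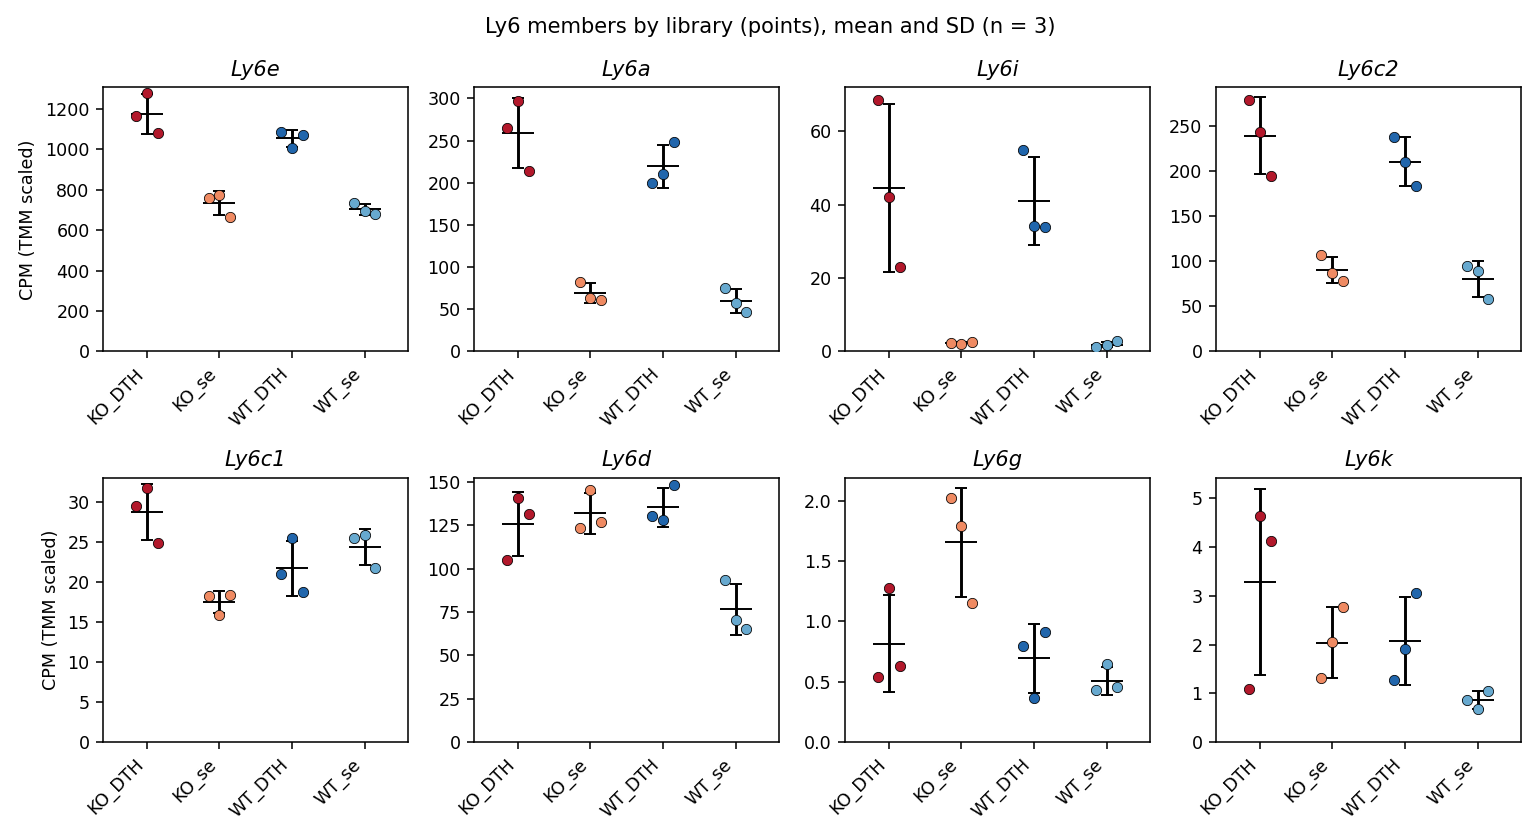
Level (CPM, counts per M counts of the library, scaled by TMM) of each member in every library, by group. Points are libraries, and bars give the mean and SD (n = 3). Ly6e, Ly6a, Ly6i and Ly6c2 separate the challenged from the sensitized libraries in both genotypes, and the levels of Ly6d are low in WT_se alone.

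Ly6i showed the largest ratio of highest to lowest level among the 8 members, 56.7, from 1.21 to 68.6 CPM over the 12 libraries. Its product is a surface protein of myeloid and other blood cells whose function is little known. WT_DTH libraries had 55.0, 34.2 and 33.9 CPM of Ly6i, against 1.21, 1.69 and 2.74 CPM in WT_se libraries. The groups lie far apart, although the challenged libraries differ among themselves. The log2 fold change was 4.43 ± 0.40 (SE), the 99th highest of the 20034 genes tested. KO_DTH libraries had 68.6, 42.0 and 22.9 CPM, against 2.40, 2.09 and 2.54 CPM in KO_se libraries, again with no overlap. That log2 fold change was 4.25 ± 0.39, the 83rd highest. The ratio of the mean levels was 21.8 in wild type and 19.0 in knockout. Challenged nodes of the 2 genotypes overlapped, with a log2 fold change of 0.12 ± 0.33 for KO_DTH against WT_DTH, and the sensitized nodes did too, at 0.31 ± 0.40 for KO_se against WT_se.

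Ly6a, the Sca-1 antigen, was the second of the strongly higher genes. Libraries of WT_DTH had 199.95, 210.4 and 248 CPM, against 75.4, 57.9 and 46.2 CPM in WT_se. Those of KO_DTH had 265, 297 and 214 CPM, against 82.3, 63.8 and 60.4 CPM in KO_se. In both genotypes every challenged library lay above every sensitized one. The log2 fold change was 1.88 ± 0.18 in wild type and 1.91 ± 0.18 in knockout, and the difference between these effects was 0.03 ± 0.25. Knockout and wild-type ranges overlapped within each state, with log2 fold changes of 0.24 ± 0.18 after challenge and 0.20 ± 0.18 after sensitization.

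Ly6e, an interferon-induced member with a known part in virus entry and in restricting coronaviruses, was the most abundant. WT_DTH libraries had 1083, 1005 and 1072 CPM of Ly6e, against 732, 693 and 681 CPM in WT_se libraries. KO_DTH libraries had 1163, 1276 and 1079 CPM, against 760.2, 774 and 666 CPM in KO_se libraries. Challenged and sensitized libraries did not overlap in either genotype. The log2 fold change was 0.59 ± 0.09 in wild type and 0.68 ± 0.09 in knockout. Within a library the ratio of the pair was 4.84 ± 0.55 Ly6e counts per Ly6a count in WT_DTH and 12.1 ± 2.5 in WT_se, and 4.57 ± 0.40 in KO_DTH and 10.8 ± 1.5 in KO_se (SD, n = 3).

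Ly6c2 was higher after challenge in both genotypes, and its copy Ly6c1 in knockout nodes only by the count above. Ly6c2 libraries of WT_DTH had 238, 209.7 and 183 CPM, against 94.5, 88.6 and 57.8 CPM in WT_se. In KO_DTH they had 279, 243 and 194 CPM, against 106, 87.1 and 78.2 CPM in KO_se. The groups did not overlap in either genotype. The log2 fold change of Ly6c2 was 1.39 ± 0.19 in wild type and 1.40 ± 0.19 in knockout.

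Ly6c1 was the less abundant of the pair. WT_DTH libraries had 20.9, 25.4 and 18.7 CPM of Ly6c1, against 25.4, 25.8 and 21.7 CPM in WT_se libraries, and these ranges overlap. KO_DTH libraries had 29.4, 31.7 and 24.8 CPM, against 18.2, 15.9 and 18.3 CPM in KO_se libraries, with no overlap. The log2 fold change of Ly6c1 was -0.17 ± 0.13 in wild type and 0.71 ± 0.13 in knockout, a difference of 0.88 ± 0.19 between the genotypes. Before challenge every KO_se library lay below every WT_se library, at a log2 fold change of -0.48 ± 0.13, which did not pass the threshold. It passed with DESeq2 size factors, with a mean of at least 50 counts, with only the libraries compared and by the DESeq2 Wald test, 4 of 20 alternatives. The pair summed as 1 gene changed by 1.15 ± 0.17 in wild type and 1.31 ± 0.17 in knockout, with a difference of 0.16 ± 0.23, and Ly6c2 made up most of the sum.

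The ratio of the 2 copies within a library does not depend on scaling. It does depend on how reads shared by the copies were assigned, which is not known. Libraries of WT_DTH had 11.4, 8.25 and 9.81 Ly6c2 counts for each Ly6c1 count, against 3.72, 3.43 and 2.66 in WT_se. Those of KO_DTH had 9.49, 7.68 and 7.82, against 5.84, 5.49 and 4.27 in KO_se. The ratio was thus higher in every challenged library than in any sensitized one, and higher in every KO_se library than in any WT_se library.

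**Figure D3:**
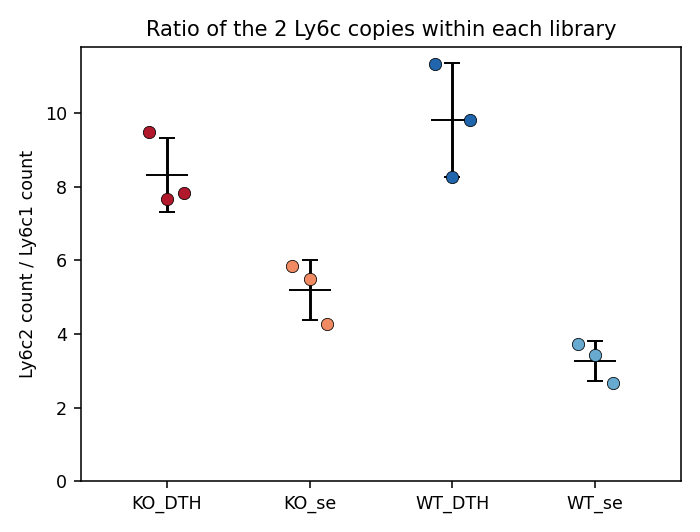
Ly6c2 counts per Ly6c1 count in each library, by group. Points are libraries, and bars give the mean and SD (n = 3). The 6 challenged libraries lie between 7.68 and 11.4 and the 6 sensitized libraries between 2.66 and 5.84. Reads shared by the copies could be counted for either.

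Ly6d, the ThB antigen of B cells and their progenitors and of squamous epithelium, stood apart in another way. WT_DTH libraries had 130.3, 128 and 148 CPM of Ly6d, against 93.4, 70.7 and 65.5 CPM in WT_se libraries. KO_DTH libraries had 105, 141 and 131 CPM, against 123, 146 and 127 CPM in KO_se libraries. WT_se was the group that differed from the other three, which overlapped. The log2 fold change with challenge was 0.82 ± 0.14 in wild type and -0.07 ± 0.14 in knockout, a difference of -0.89 ± 0.20. Between sensitized nodes it was 0.79 ± 0.14 for KO_se against WT_se, and every KO_se library was higher.

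Among sensitized nodes, Ly6d was the 1 member of 8 counted in KO_se against WT_se, beside 3.76% of all genes higher and 1.4% lower. For KO_DTH against WT_DTH 0 of 8 were counted, beside 0.599% of all genes in either direction. At an unadjusted p under 0.05 edgeR counted 1, and the DESeq2 Wald test counted 0 after adjustment. In the difference between the challenge effects, Ly6c1 was counted as higher and Ly6d as lower, beside 1.67% of all genes higher and 0.439% lower. Those last 2 counts depended on single libraries. Ly6c1 kept its call in 3 of 12 fits that each left out a library, those without WT_DTH replicate 2, KO_se replicate 3 or KO_DTH replicate 3, and its value in the 12 fits was 0.74 to 0.96. Ly6d kept its call in 3 of 12, those without WT_se replicate 1, KO_se replicate 3 or KO_DTH replicate 3, with values of -1.06 to -0.80 in the 12 fits.

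Since gland genes moved with the groups, the fit was repeated with a salivary score as a covariate. Salivary shares were 4.17 to 9.55% in KO_DTH, 2.85 to 6.87% in KO_se, 2.08 to 3.38% in WT_DTH and 7.06 to 14.5% in WT_se. Among the groups compared, only KO_DTH and KO_se overlap. In other comparisons the score and the group can hardly be told apart, so lost calls there do not tell which a difference goes with. This holds wherever counts with the score are given. With the score, the log2 fold change in wild type was 1.86 ± 0.37 for Ly6a, 1.11 ± 0.38 for Ly6c2, 0.69 ± 0.28 for Ly6d, 0.54 ± 0.19 for Ly6e and 5.09 ± 0.79 for Ly6i, and Ly6i alone passed the threshold. Without the score the standard errors of these values were smaller, at 0.18, 0.19, 0.14, 0.09 and 0.40. In the fit with the score 41 genes passed in wild type, against 3755 without it. In knockout Ly6a, Ly6c2, Ly6e and Ly6i still passed with the score, at 1.92 ± 0.24, 1.53 ± 0.25, 0.70 ± 0.12 and 3.97 ± 0.48, and Ly6c1 did not, at 0.56 ± 0.16. The difference between genotypes was 0.38 ± 0.37 for Ly6c1 and -0.70 ± 0.41 for Ly6d with the score.

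**Figure D4:**
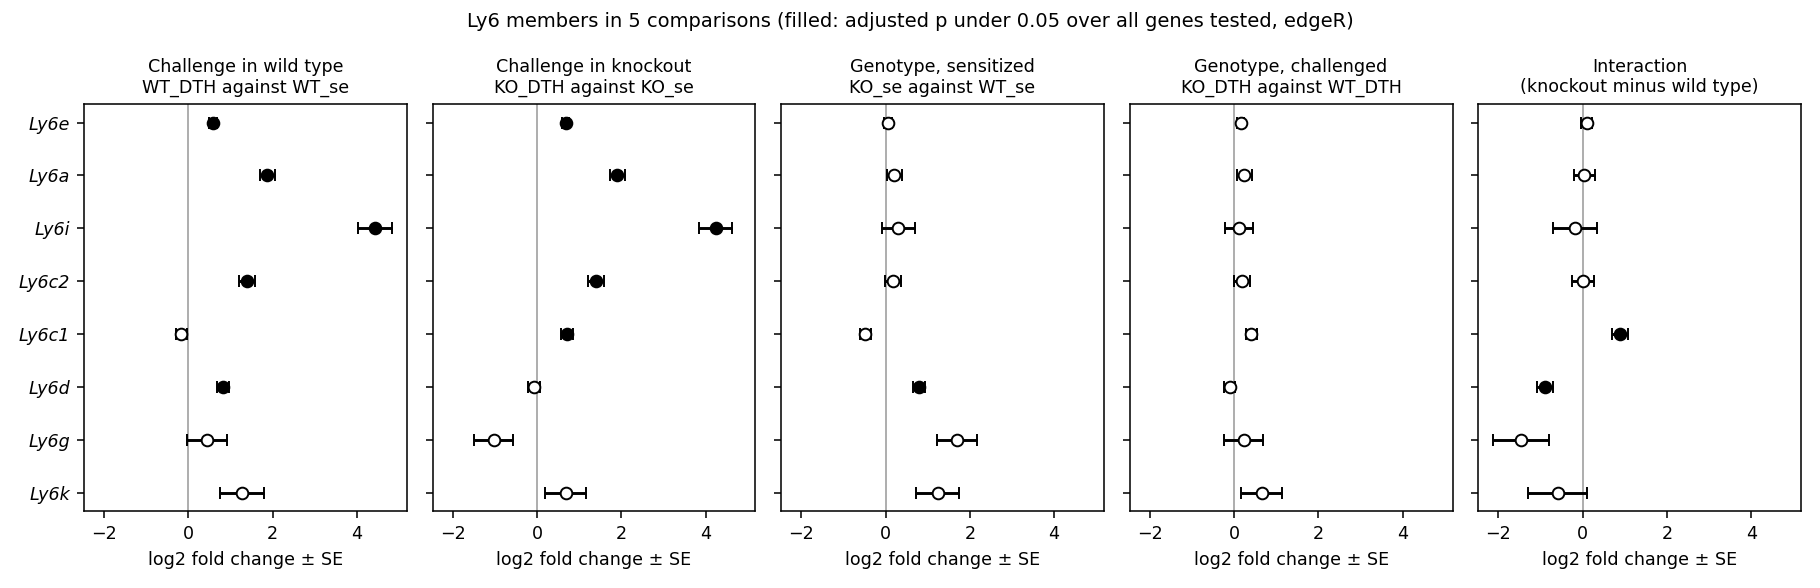
Log2 fold change and SE of each member in 5 comparisons, from 1 edgeR fit to all 12 libraries. Filled points passed an adjusted p of 0.05 over all genes tested. Ly6i lies at 4.43 and 4.25 in the challenge comparisons, and Ly6c1 and Ly6d lie on opposite sides of 0 in the interaction.

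Ly6g, the neutrophil antigen, and Ly6k, a member best known from testis and sperm function in mice, were scarce. Ly6g had 15 to 113 counts per library and Ly6k 25 to 189. Ly6g was at 0.54, 1.27 and 0.63 CPM in KO_DTH, against 2.02, 1.79 and 1.15 CPM in KO_se, and at 0.80, 0.37 and 0.91 CPM in WT_DTH, against 0.43, 0.64 and 0.45 CPM in WT_se. Its KO_se libraries were all above the WT_se ones, at a log2 fold change of 1.70 ± 0.48 that did not pass the threshold, though it did without KO_DTH replicate 2 and with only the libraries compared. Ly6k was at 1.09, 4.63 and 4.12 CPM in KO_DTH, against 1.31, 2.04 and 2.78 CPM in KO_se, and at 1.27, 1.91 and 3.06 CPM in WT_DTH, against 0.86, 0.67 and 1.05 CPM in WT_se. The WT_DTH libraries of Ly6k were all above those of WT_se, at 1.27 ± 0.51, which passed only in the fit without KO_DTH replicate 1. No difference of Ly6g or Ly6k between 2 groups passed the threshold in the fit to all libraries at this depth.

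Levels of different genes are comparable only per length of transcript, here CPM per kilobase of the principal coding transcript. Ly6e was first in every group, at 514 in KO_DTH, 321 in KO_se, 462 in WT_DTH and 308 in WT_se. In the challenged groups Ly6c2 and Ly6a came next, with overlapping ranges, at 291 and 271 in KO_DTH and 256 and 230 in WT_DTH. Ly6d followed, at 169 and 182. In the sensitized groups Ly6d came second instead, at 177 in KO_se and 103 in WT_se, where it overlapped with Ly6c2 at 97.7. Ly6i ranked beside Ly6c1 after challenge, at 38.5 and 33.9 in KO_DTH and 35.5 and 25.7 in WT_DTH, and beside Ly6k before it, at 2.03 and 2.58 in KO_se and 1.62 and 1.09 in WT_se. Ly6g was last in all 4 groups, although in KO_se its range met those of Ly6i and Ly6k. With the length of all annotated exons in place of the transcript Ly6c2 ranked at place 4 in every group, so its place in the order rests on the length chosen.

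The genes with the most similar profiles were sought among 12201 genes by the root-mean-square difference of centred log2 levels over the 12 libraries. For Ly6a the nearest were Pml, at 0.165, and Bst2, at 0.167, both known as interferon-induced genes. For Ly6c2 they were Parp9, at 0.164, and Tdrd7, at 0.166. The nearest to Ly6d was H2-Aa, at 0.122, which encodes an MHC class II chain of antigen-presenting cells, and the B cell gene Ms4a1 was among the nearest 5, at 0.149. Ly6e was nearest to Tnip2, at 0.068, and Ly6c1 to Smad1, at 0.166. Ly6i was nearest to Ms4a6d, at 0.426, and Slamf8, at 0.494, with Ly6g nearest to Iglc1, at 0.347. Such a difference reads against the spread of the member itself, whose own root-mean-square deviation was 0.981 for Ly6a, 0.293 for Ly6c1, 0.742 for Ly6c2, 0.378 for Ly6d, 0.330 for Ly6e, 0.733 for Ly6g, 2.18 for Ly6i and 0.844 for Ly6k. The nearest difference for Ly6k was 0.464. Relative to their own spread, Ly6c1, Ly6g and Ly6k were the members least like their nearest gene. Since members were chosen on these same levels, the lists are descriptions.

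All gene lists were, like the members, chosen with earlier results of these data known. The genes named from them are among those of smallest p, so their adjusted p-values are descriptions too. Genes known to respond to interferon were higher in both challenge comparisons. All 22 listed genes of the type I response were counted as higher in WT_DTH against WT_se, with a median log2 fold change of 2.29, and all 22 in KO_DTH against KO_se, with a median of 2.86. Stat2, a transcription factor of that response, averaged 142 CPM in WT_DTH and 34.5 CPM in WT_se (log2 fold change 2.04 ± 0.15, adjusted p = 1.61e-05 by edgeR). It averaged 139 CPM in KO_DTH and 34.8 CPM in KO_se (1.99 ± 0.15, adjusted p = 2.78e-05 by edgeR). Of 20 genes of the interferon-gamma response 17 were higher in each genotype, and Gbp2, a guanylate-binding protein, had 196 CPM in WT_DTH and 43.0 CPM in WT_se. The median of that list was 1.22 in wild type and 1.38 in knockout. With the salivary score 1 of the 22 and 2 of the 20 passed in wild type, and 22 and 16 passed in knockout. Every fit that left out a library counted 22 of 22 type I genes in both genotypes.

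Markers of some of the cells that carry Ly6 proteins moved too. Of 14 inflammatory monocyte markers 12 were higher in WT_DTH against WT_se and 10 in KO_DTH against KO_se, with medians of 1.77 and 1.36. Plac8 averaged 391 CPM in WT_DTH and 82.1 CPM in WT_se (adjusted p = 1.34e-06 by edgeR). Their summed level was 1554 to 1823 CPM in KO_DTH, 721 to 940.3 in KO_se, 1543 to 2503 in WT_DTH and 545 to 643 in WT_se, and its part in the Ly6c2 difference was not tested. With the salivary score 3 of the 14 passed in wild type and 10 in knockout. Of 18 neutrophil markers 12 were higher in WT_DTH against WT_se, 1 in KO_DTH against KO_se and 6 in KO_se against WT_se. S100a8, a calcium-binding protein of neutrophils, averaged 84.6 CPM in KO_se and 19.6 CPM in WT_se (adjusted p = 0.00988 by edgeR). The neutrophil list summed to 288 to 613 CPM in KO_DTH, 339 to 533 in KO_se, 319 to 538 in WT_DTH and 107 to 190 in WT_se. Its KO_se and WT_se ranges, like those of Ly6g, do not overlap. Its WT_DTH and WT_se ranges do not overlap either, whereas those of Ly6g do. For KO_DTH against KO_se the median log2 fold change of the list was -0.06, and that of Ly6g was -1.03 ± 0.46. Without WT_se replicate 1 the neutrophil counts were 5 in wild-type challenge and 1 in KO_se against WT_se, without KO_se replicate 2 the second was 2, and with the salivary score both were 0.

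B cell markers were also low in WT_se. Of 12, 8 were higher in WT_DTH against WT_se, 0 higher and 1 lower in KO_DTH against KO_se, and 3 higher in KO_se against WT_se. Cd79b, part of the B cell receptor, averaged 173 CPM in KO_se and 90.01 CPM in WT_se (adjusted p = 0.00172 by edgeR). The B cell list summed to 2588 to 3570 CPM in KO_DTH, 2577 to 3716 in KO_se, 2889 to 3663 in WT_DTH and 1888 to 2368 in WT_se. In the difference between the challenge effects 3 of the 12 were lower, Cd79b at -1.02 ± 0.17 (adjusted p = 0.0237 by edgeR). Leaving out single libraries gave 6 to 9 B cell genes in the first comparison, 0 to 2 in the second, 3 to 10 in the third and 0 to 6 in the last, and the salivary score gave 0 in each. Squamous epithelium, the other known site of Ly6d, was at low level. Of its 15 markers Krt1, Krtdap and Lor were at 0 in every library, and the list summed to 82.2 to 127 CPM in KO_DTH, 63.6 to 74.8 in KO_se, 80.5 to 90.8 in WT_DTH and 80.0 to 118 in WT_se. Of 8 tested, 1 was higher and 4 lower in WT_DTH against WT_se, while the summed ranges of those groups overlapped. In KO_se against WT_se 0 of the 8 were counted, with a median log2 fold change of -0.96. In the difference between the challenge effects 2 were higher, with a median of 3.32. That count was 0 to 3 as single libraries were left out, and 0 with the salivary score. Which cells the RNA came from was not tested.

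Other genes with the LY6/uPAR fold were mostly near silence in these nodes. Of 36 listed, 33 were in the table, 9 had 0 counts in every library and 11 could be tested. Plaur, the receptor of the protease urokinase, was the one that was higher after challenge in both genotypes. It averaged 153 CPM in WT_DTH and 96.6 CPM in WT_se (0.67 ± 0.11, adjusted p = 0.00117 by edgeR), and 150.4 CPM in KO_DTH and 100.2 CPM in KO_se (0.59 ± 0.11, adjusted p = 0.00428 by edgeR). Lypd6, Lypd6b and the complement inhibitor Cd59a were lower in WT_DTH against WT_se, at -3.30 ± 0.97, -1.10 ± 0.32 and -2.41 ± 0.73 (adjusted p = 0.0312, 0.0321 and 0.0367 by edgeR), all from levels of 6.07 CPM or less in WT_se. Ly6g5b, encoded in the MHC region, averaged 3.65 CPM in KO_se and 0.957 CPM in WT_se (1.93 ± 0.41, adjusted p = 0.0193 by edgeR). It lost its call without WT_se replicate 1 or 3 or KO_se replicate 1 or 2. The family genes counted in WT_DTH against WT_se numbered 1 to 4 as single libraries were left out, and 0 with the salivary score. In KO_DTH against KO_se 1 was counted, with the score and in every fit that left out a library.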

How the data were processed

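The 12 libraries were made from RNA of mandibular lymph nodes. The authors deposited estimated counts per gene, all whole numbers. Per the submitters' processing notes, the tools were fastp 0.23.2, HISAT2 2.2.1 and StringTie 2.2.1, with GRCm39. Per the labels, libraries were made with a directional kit. How reads shared by copies were assigned is not given in the sources used here.

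Names, lengths and gene order came from GENCODE M21 and promoters from RefSeq, both on GRCm38, so no coordinate of the table was used. Of the IDs 51948 had a symbol. The members and lists were chosen with earlier results of these data known. Counts were fitted with edgeR 4.0.16 (quasi-likelihood, TMM, filterByExpr with a minimum count of 10) in 1 model of all libraries with 8 residual degrees of freedom, and adjusted by Benjamini-Hochberg over 20034 genes. CPM are TMM scaled. The standard error is the log2 fold change over the root of F. The fit was tested on simulated counts, which lacked the group shifts in salivary and mitochondrial shares. That test therefore says nothing of how those shifts bear on the calls.

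Named are the 8 members, other family genes past the threshold, up to 4 genes of each list by smallest p, and the 5 nearest profiles, of which the text names a part. Alternatives were DESeq2 1.42.0 (size factors and Wald test), other filters, only the libraries compared, a replicate block, each library left out, a salivary score as a covariate, the library with most salivary RNA left out of each group, and copies summed. Totals were 36.9 to 58.4 M counts per library. Pairs of libraries from the same group gave a chi-squared of 36.8 to 293 per degree of freedom, so the spread between libraries was above counting error.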

Additional observations from a re-analysis of the deposited data

Results flagged for a closer look

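For 2 members the difference between the challenge effects of the genotypes passed the threshold in the fit to all libraries. They are listed as a description, since the members were chosen with these levels known. For Ly6c1 the effect in knockout minus that in wild type was 0.88 ± 0.19 on the log2 scale, with Ly6c1 at 24.8 to 31.7 CPM in KO_DTH, 15.9 to 18.3 CPM in KO_se, 18.7 to 25.4 CPM in WT_DTH and 21.7 to 25.8 CPM in WT_se. For Ly6d it was -0.89 ± 0.20, with Ly6d at 105 to 141 CPM in KO_DTH, 123 to 146 CPM in KO_se, 128 to 148 CPM in WT_DTH and 65.5 to 93.4 CPM in WT_se. Each difference passed in 3 of 12 fits that left out a library. Neither passed with a replicate block, without the 1 library per group that was richest in salivary RNA, or with the salivary score, where the values were 0.38 ± 0.37 and -0.70 ± 0.41. Ly6c1 and Ly6c2 summed as 1 gene gave 0.16 ± 0.23.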

How the results depend on the processing

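In KO_se against WT_se, where 1 member was counted, 2 were counted with DESeq2 size factors, with a mean of at least 50 counts and by the DESeq2 Wald test, 3 with only the libraries compared, and 0 with the salivary score or when each group lost its library richest in salivary RNA (4 left out). Leaving out 1 library gave 1 to 2. In WT_DTH against WT_se 5 members became 1 with the salivary score. For the difference between challenge effects 2 members became 1 with no filter, 0 with the salivary score, 0 without those 4 libraries, and 0 to 2 with 1 library left out. Ly6d in KO_se against WT_se lost its call with the score and without those 4 libraries, and kept it in 12 of 12 fits that left out 1 library. The other calls of members in comparisons of 2 groups were kept in at least 19 of 20 alternatives. No member's called value turned its direction. Over all genes, WT_DTH against WT_se gave 3755 calls, 41 with the salivary score and 2464 without the libraries of largest share. KO_DTH against KO_se gave 1938, 949 with the score, 673 without those libraries and 2984 by DESeq2. KO_se against WT_se gave 1035, 140 with the score, 351 without those libraries and 2301 by DESeq2. KO_DTH against WT_DTH gave 120, 64 with no filter, 2 with the score and 932 by DESeq2. The difference between effects gave 422, 267 with no filter, 0 with the score, 168 without those libraries and 1240 by DESeq2. With 1 library left out the 5 counts ranged over 2566 to 3890, 1039 to 2035, 369 to 1100, 14 to 471 and 0 to 830. The cause of these shifts was not tested.

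Same-numbered libraries deviated from their group means with correlations of -0.10 to 0.14, so the numbers were not taken as pairs. With a replicate block 0 members were counted in the difference between effects, 128 genes passed there and 38 in KO_DTH against WT_DTH. The length of all annotated exons, chosen after seeing the data, put Ly6c2 at place 4 in every group. Ly6g and Ly6k had only 15 to 189 counts per library, and how far depth limited their calls was not tested.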

Other observations

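The lists here were also chosen with earlier results known, so the adjusted p-values are descriptions. Plasmacytoid dendritic cell genes were read from a list of 8. Siglech, a surface lectin of these cells, was lower after challenge in both genotypes. It averaged 7.37 CPM in WT_DTH and 19.5 CPM in WT_se (log2 fold change -1.41 ± 0.23, adjusted p = 0.0014 by edgeR), and 4.55 CPM in KO_DTH and 22.5 CPM in KO_se (-2.31 ± 0.24, adjusted p = 8.5e-05 by edgeR). Ccr9, a chemokine receptor, was lower too, at -1.03 ± 0.18 in wild type and -0.95 ± 0.18 in knockout (adjusted p = 0.002 and 0.00539 by edgeR). Of the 8 genes 1 was higher and 2 lower in wild type, and 0 were higher and 2 lower in knockout. The median log2 fold change of the 8 was -0.08 in wild type, with 4 above 0, and -0.30 in knockout, with 3 above 0. Their summed level was 208 to 265 CPM in KO_DTH, 271 to 291 in KO_se, 227 to 276 in WT_DTH and 201 to 236 in WT_se. The wild-type ranges thus overlapped.

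Of 12 effector T and NK cell genes 2 were higher and 1 lower in WT_DTH against WT_se, and 4 were higher in KO_DTH against KO_se. The median log2 fold change of the 12 was -0.01 in wild type, with 6 above 0, and 0.29 in knockout, with 9 above 0. The cytotoxic protease Gzmb averaged 48.1 CPM in WT_DTH and 10.46 CPM in WT_se (2.21 ± 0.36, adjusted p = 0.0014 by edgeR), and 53.2 CPM in KO_DTH and 7.94 CPM in KO_se (2.74 ± 0.37, adjusted p = 0.000619 by edgeR). Of 12 naive and resting T cell genes 1 was higher and 9 lower in WT_DTH against WT_se, and 0 were higher and 6 lower in KO_se against WT_se. In KO_DTH against KO_se 1 was higher and 1 lower. The median log2 fold change with challenge was -0.54 in wild type and -0.12 in knockout. The difference between these effects was above 0 for all 12 genes, of which 1 was counted. Lef1, a transcription factor of naive T cells, averaged 134 CPM in KO_se and 208 CPM in WT_se (-0.63 ± 0.10, adjusted p = 0.00472 by edgeR). Of 8 plasma cell genes 5 were higher and 1 lower in KO_se against WT_se. Of 16 genes of endothelium, another known site of Ly6C, 0 were higher and 6 lower in WT_DTH against WT_se. In KO_DTH against KO_se 1 was higher and 0 lower. Their median difference between the challenge effects was 1.14, with 14 of 16 above 0 and 1 counted as higher. That count was 0 to 4 as single libraries were left out, and 0 with the salivary score. The endothelial list summed to 201 to 219 CPM in WT_DTH and 210 to 242 in WT_se. In KO_DTH it summed to 194 to 242 CPM and in KO_se to 188 to 270, so the ranges overlapped in each genotype. The part of endothelium in the Ly6c1 difference was not tested. Plvap, of vessel walls, averaged 4.71 CPM in WT_DTH and 15.8 CPM in WT_se (-1.75 ± 0.27, adjusted p = 0.000968 by edgeR). With the salivary score 0 genes of the dendritic cell, effector, naive and endothelial lists passed in WT_DTH against WT_se. In KO_DTH against KO_se 2 dendritic cell, 3 effector, 2 naive T cell and 1 endothelial genes passed with the score. In KO_se against WT_se 0 plasma cell and 1 naive T cell genes passed with it. As single libraries were left out, the effector count in KO_DTH against KO_se was 1 to 4 and the naive T cell count in KO_se against WT_se 2 to 6.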
